A study of Bos taurus with 71 samples.

Results

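The genes described here are interferon-induced genes, interferon regulatory factors and the cytosolic RNA sensors that switch them on, measured by RNA-Seq in the rumen, jejunum (JE) and ileum (IL) of newborn calves. They were chosen by name, with earlier results of these data known, from the symbols of the study's table of immune-related genes. That table kept genes expressed in at least 50% of jejunum or ileum samples, so a gene expressed only in the rumen could not enter. Of the 1280 symbols of that table that were at hand, 31 matched an interferon or JAK-STAT name, out of 21510 gene identifiers measured. The 31 comprised 2 RNA sensors, 7 interferon regulatory factors, 3 corepressors of these factors, 15 interferon-induced effectors and 4 genes of the same name families with other main roles (*IFI30*, *IFITM5*, *ISG20L2* and *TRIM31*). No *STAT*, *JAK*, *SOCS*, *PIAS*, *MX* or *OAS* symbol was among them because only that part of the table was used here, so the set is one of interferon-induced and *IRF* genes, and the JAK-STAT genes appear below only as companions.

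The animals were Holstein bull calves, untreated and with no genetic modification. D0 calves (*n* = 3) were sampled shortly after birth without colostrum, whereas D7, D21 and D42 calves (*n* = 5 each, at 7, 21 and 42 days of age) had received colostrum and then milk, with starter feed offered to the older calves. Each region and age holds 1 whole-wall sample (rumen, mid-jejunum or ileum) from each of its separate calves, 54 libraries in all. Samples of the 3 regions that share an age and an animal number were taken to be from 1 calf, which neither the labels nor the methods state. The methods describe the jejunum and ileum and not the rumen. Per the methods, the tissue was rinsed with buffered saline at all ages but D0. Age, colostrum, milk feeding and this rinsing cannot be told apart between D0 and D7. Whole tissue also means that fewer cells of a type and less RNA per cell cannot be told apart in any value below.

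Cells recognise viral RNA through the helicases RIG-I (*DDX58*) and MDA5 (*IFIH1*), which activate *IRF3* and *IRF7* and thereby the genes of type I and type III interferons. Secreted interferons act through JAK kinases and STAT factors on neighbouring cells, where they induce antiviral effectors such as ISG15, a ubiquitin-like modifier, the RNA-binding IFIT proteins and the IFITM proteins, which block entry of viruses into cells. The gut lining is a main site of interferon action, and some interferon-induced genes are held at a low level even without infection.

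Values are the deposited read counts scaled to the total of mapped reads of each library (CPM), which were rounded to whole numbers, so 1 CPM is the smallest step and the depth of each library is unknown. The deposited values of a library summed to between 970214 and 984626. A gene was called changed at a false discovery rate (FDR) below 0.05 and a fold change above 2, from limma on log2(CPM + 1) with all expressed genes in the fit. Fold changes are therefore on the log2(CPM + 1) scale, which understates changes of genes near 0, and levels were not corrected for gene length, so levels of different genes are not compared. Of the 54 libraries, 4 stood apart. In animal 1 of D0 and animal 1 of D42 in the ileum, summed CPM of 4 B cell markers were 27 and 272, against 774 to 1470 in the other ileum libraries, and both correlated better with a jejunum group (median 0.853 and 0.883) than with the ileum group they were most like (0.741 and 0.83). These libraries, together with animal 2 of D0 in the ileum, also did not hold the values that the study's gene table gives for them. Rumen animal 2 of D0 had a sum of 5749 over 4 smooth muscle and fibroblast markers, against 45989 and 48162 in the other D0 rumen libraries. Results that changed without these libraries are given both ways. Counts of called genes under such other settings stand without the share of all genes called in the same fit.

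**Figure D1:**
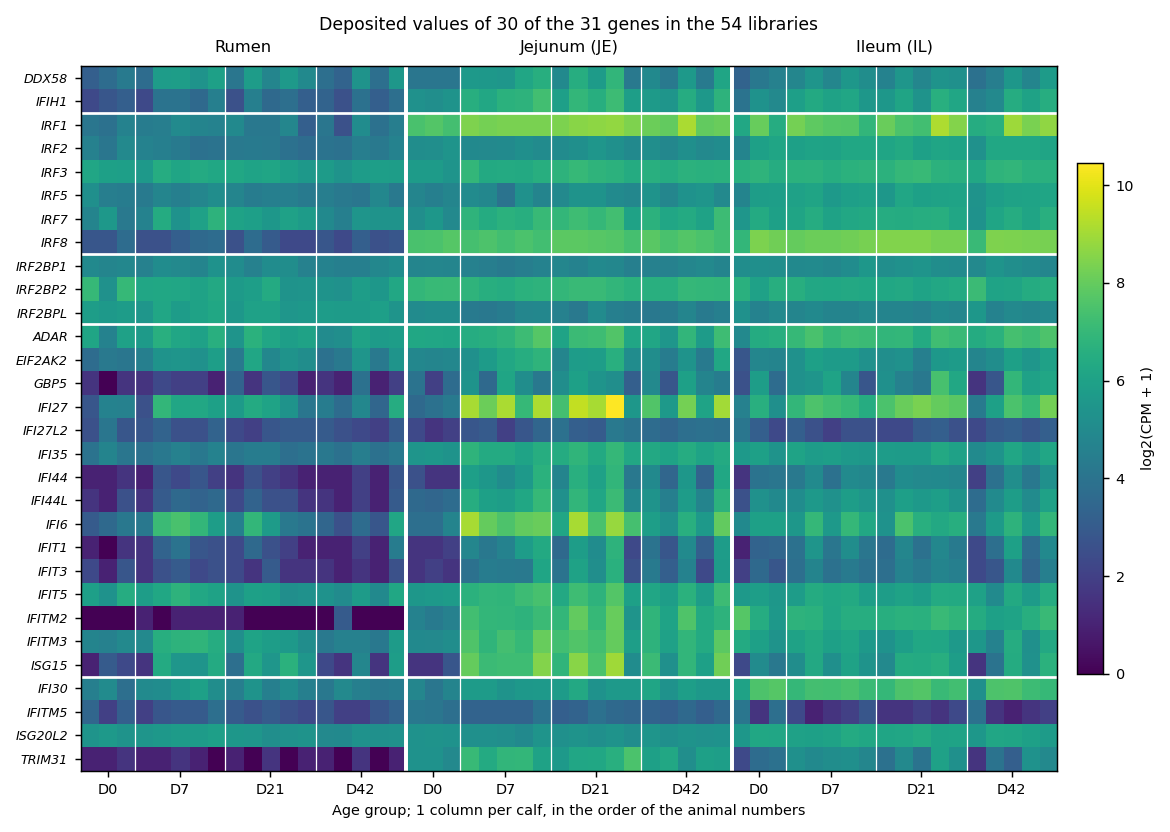
Deposited values of 30 of the 31 genes on the log2(CPM + 1) scale, 1 column per library, grouped by region and age, with the genes ordered as sensors, regulatory factors, corepressors, effectors and others. Most effectors are dark in the 3 jejunum columns of D0 and bright in the D7 columns, and *IRF1*, *IRF8*, *IFITM2* and *TRIM31* are dark across the rumen.

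The first question was how the set changed over the first week of life. In the jejunum 16 of the 31 genes rose between D0 and D7 and none fell, 51.6% of the set, whereas 9.5% of the 13465 genes tested changed in either direction in the same fit, with 531 rising and 748 falling. Both sensors, 1 of 7 regulatory factors, 11 of 15 effectors and 2 of the 4 other genes rose. The median log2 change was 1.29 over the 31 genes and -0.10 over all genes tested. In each of these 16 called genes the lowest D7 calf lay above the highest D0 calf, which the call itself makes likely. The share of all genes without overlap was not determined.

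*ISG15*, which is conjugated to newly made proteins during the antiviral response, changed most. Its level was 2, 2 and 6 CPM in the 3 D0 jejunum samples and 256, 138, 149, 147 and 365 CPM in the 5 D7 samples. The groups did not overlap, and the mean went from 3.33 ± 2.31 (SD, *n* = 3) to 211 ± 98.8 CPM (SD, *n* = 5), a log2 change of 5.62 ± 0.37 (SE, limma FDR = 7.89e-06). *IFI27*, an interferon-induced membrane protein, had 11, 14 and 19 CPM at D0 and 540, 277, 556, 129 and 582 CPM at D7. All D7 calves were above all D0 calves, although the D7 calves themselves spanned a wide range, and the log2 change was 4.57 ± 0.45 (SE, limma FDR = 8.25e-05). *IFI6*, which encodes a small protein that limits cell death, had 13, 13 and 25 CPM at D0 against 544, 250, 186, 247 and 269 CPM at D7. Animal 1 was the highest D7 calf for this gene, no D7 calf was near the D0 range, and the log2 change was 4.02 ± 0.32 (SE, limma FDR = 2.47e-05).

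*IFI44* and its paralog *IFI44L*, both induced by type I interferon, rose together. *IFI44* was 5, 2 and 2 CPM at D0 and 59, 46, 33, 49 and 102 CPM at D7, a log2 change of 3.86 ± 0.35 (SE, limma FDR = 4.78e-05). *IFI44L* was 11, 10 and 12 CPM at D0 and 91, 60, 55, 75 and 126 CPM at D7, a log2 change of 2.72 ± 0.24 (SE, limma FDR = 4.61e-05). Animal 5 of D7 was the highest for both, and D0 and D7 did not overlap for either.

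The IFIT proteins bind viral RNA and block its translation, and all 3 measured *IFIT* genes of the set rose. *IFIT1* was 2, 2 and 3 CPM at D0 and 27, 17, 24, 54 and 80 CPM at D7 (log2 change 3.43 ± 0.43, limma FDR = 0.000339). *IFIT3* was 2, 3 and 2 CPM at D0 and 14, 20, 19, 18 and 70 CPM at D7 (log2 change 2.88 ± 0.43, limma FDR = 0.000941). For *IFIT3*, 4 D7 calves lay within 14 to 20 CPM and animal 5 stood far above them, so the mean of 28.2 CPM was not typical of the group. *IFIT5* was already at 46, 48 and 52 CPM at D0 and rose to 102, 118, 113, 143 and 171 CPM (log2 change 1.37 ± 0.17, limma FDR = 0.000268).

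*IFITM2* and *IFITM3* belong to a family of near-identical genes, so reads may be split unevenly between them and their separate levels are uncertain. *IFITM2* was 24, 19 and 23 CPM at D0 and 158, 122, 116, 107 and 138 CPM at D7 (log2 change 2.48 ± 0.15, limma FDR = 4.19e-06). *IFITM3* was 30, 29 and 34 CPM at D0 and 190, 114, 162, 129 and 259 CPM at D7 (log2 change 2.37 ± 0.23, limma FDR = 8.15e-05). Neither gene's groups overlapped. *IFITM5*, the family member known from bone, was instead at 17, 16 and 13 CPM at D0 and 9, 9, 9, 9 and 15 CPM at D7 and did not pass the threshold (log2 change -0.56 ± 0.20, limma FDR = 0.0603).

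*EIF2AK2*, the RNA-activated kinase PKR that halts translation, was 28, 26 and 28 CPM at D0 and 37, 52, 76, 90 and 111 CPM at D7 (log2 change 1.29 ± 0.30, limma FDR = 0.0115). Its D7 calves were widely spread, all of them above the D0 samples. The 4 effectors that were not called were *ADAR*, which edits double-stranded RNA, *GBP5*, a guanylate-binding protein, *IFI35* and *IFI27L2*. *IFI35* fell just short of the fold threshold with a log2 change of 0.97 ± 0.15 (limma FDR = 0.00128), and *GBP5* ranged from 3 to 15 CPM at D0 and from 11 to 70 CPM at D7 with a log2 change of 1.64 ± 0.59 (limma FDR = 0.0636).

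The RNA sensors rose with the effectors. *DDX58* was at 16 CPM in each D0 jejunum sample and at 50, 47, 44, 71 and 92 CPM at D7 (log2 change 1.8 ± 0.23, limma FDR = 0.000344). *IFIH1* was 38, 35 and 40 CPM at D0 and 94, 77, 101, 108 and 157 CPM at D7 (log2 change 1.45 ± 0.20, limma FDR = 0.000542). Animal 5 was the highest D7 calf for both sensors.

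Among the regulatory factors *IRF7*, which interferon itself induces and which amplifies the response, was the one that was called. It was 35, 45 and 29 CPM at D0 and 110, 86, 101, 92 and 133 CPM at D7 (log2 change 1.5 ± 0.18, limma FDR = 0.000224). *IRF1*, induced by interferon gamma, was 176, 202 and 159 CPM at D0 and 348, 311, 331, 329 and 329 CPM at D7. Its D7 calves were close together and above the D0 samples, but the log2 change of 0.88 ± 0.11 (limma FDR = 0.000391) was under the fold threshold. *IRF3*, the factor that starts the response, gave a similar log2 change of 0.87 ± 0.16 (limma FDR = 0.00277) and was likewise not called. *IRF2*, *IRF5* and *IRF8* had log2 changes between -0.22 and 0.10 with FDR values above the threshold. The corepressors *IRF2BP1*, *IRF2BP2* and *IRF2BPL*, named for binding the IRF2 protein, had log2 changes of -0.28, -0.36 and -0.59, all under the fold threshold.

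Of the genes with other main roles, *IFI30* and *TRIM31* rose. *IFI30*, a thiol reductase that prepares antigen for presentation, was 27, 16 and 25 CPM at D0 and 53, 53, 41, 47 and 48 CPM at D7 (log2 change 1.09 ± 0.17, limma FDR = 0.00143). *TRIM31*, a ubiquitin ligase of the intestine, was 39, 39 and 29 CPM at D0 and 130, 83, 116, 120 and 64 CPM at D7 (log2 change 1.46 ± 0.23, limma FDR = 0.00124). The groups did not overlap for either gene. *ISG20L2*, an exonuclease of ribosome biogenesis, had a log2 change of -0.14 and was not called.

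None of the 27 cell type markers examined was called between D0 and D7 in the jejunum, against 9.5% of all genes. Of the 27, 16 had positive log2 changes, with a median of 0.16 over all 27 and -0.10 over all genes. All 4 B cell markers were positive, with a median of 1.10, and 4 of 6 macrophage and monocyte markers were, with a median of 0.23. The lack of calls therefore does not show that cell composition was unchanged. The summed level of 6 macrophage and monocyte markers ran from 414 to 538 CPM at D0 and from 487 to 711 CPM at D7, and that of 4 B cell markers from 12 to 47 CPM and from 24 to 88 CPM. Intestinal epithelial markers summed to 3866 to 4501 CPM at D0 and 3652 to 5052 CPM at D7. The part of cell composition in the rise was not tested beyond these sums.

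**Figure D2:**
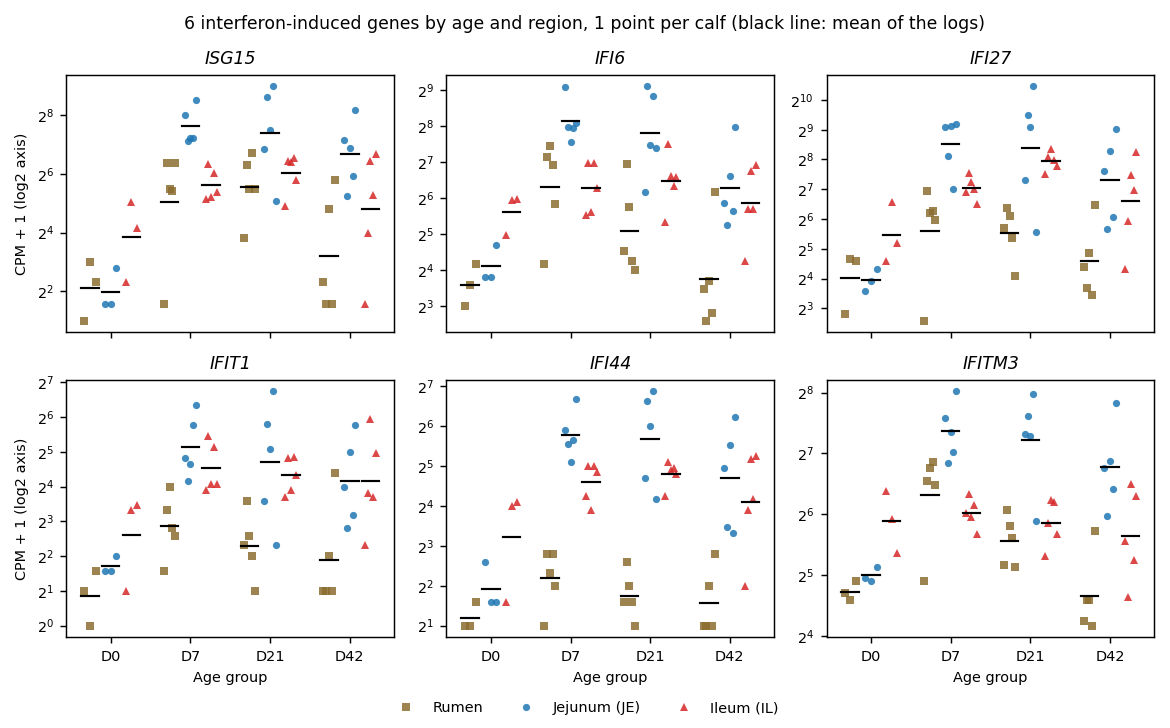
CPM + 1 on a log2 axis for 6 effectors against age group, 1 point per calf, with squares for rumen, circles for jejunum, triangles for ileum and a black line at the mean of the logs. In the jejunum the D7 points of each gene lie above all D0 points, and at D21 and D42 the calves of 1 age spread widely.

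In the ileum none of the 31 genes was called between D0 and D7 by limma, against 0% of the 13457 genes tested, so that contrast called no gene of any kind. At an unadjusted p under 0.05, 10 of the 31 passed, each with a positive log2 change, against 15.8% of all genes. A fit with all ages and regions together called 3, *TRIM31*, *ADAR* and *EIF2AK2*, and its share of all genes called is not given here. The median log2 change was 0.46 over the set and 0.13 over all genes. *ISG15* in the ileum was 4, 32 and 17 CPM at D0 and 34, 79, 36, 64 and 41 CPM at D7. Its D0 samples disagreed with each other by more than in the jejunum, and animal 1, the library that stood apart, was the lowest of them. *IFIH1* was 15, 39 and 29 CPM at D0 and 59, 80, 64, 72 and 45 CPM at D7 (log2 change 1.25 ± 0.31, limma FDR = 0.309), and its groups did not overlap. The D0 arm held 2 of the 3 ileum libraries with values unlike the study's table, and without them 1 sample would remain.

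In the rumen 29 of the 31 genes passed the filter on low values, *IFITM2* and *TRIM31* being at or near 0. None of the 29 was called between D0 and D7 by limma, against 0% of the 12900 genes tested, with 8 of the 29 passing an unadjusted p under 0.05, each with a positive log2 change, against 7.42% of all genes. Leaving out animal 2 of D0, whose rumen library stood apart, called 4, *IFI6*, *EIF2AK2*, *IFI30* and *IFITM3*. The fit with all groups called *IFI6* and *IFITM3*. The shares of all genes called in these other fits are not given here, so these calls are not shown to be particular to the set. *IFI6* was 7, 11 and 17 CPM at D0 and 17, 140, 174, 119 and 56 CPM at D7 (log2 change 2.72 ± 0.69, limma FDR = 0.527). *ISG15* was 1, 7 and 4 CPM at D0 and 2, 82, 44, 42 and 82 CPM at D7 (log2 change 2.94 ± 1.04, limma FDR = 0.623). For both genes 4 D7 calves were above the D0 range and animal 1 of D7 was within it.

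**Figure D3:**
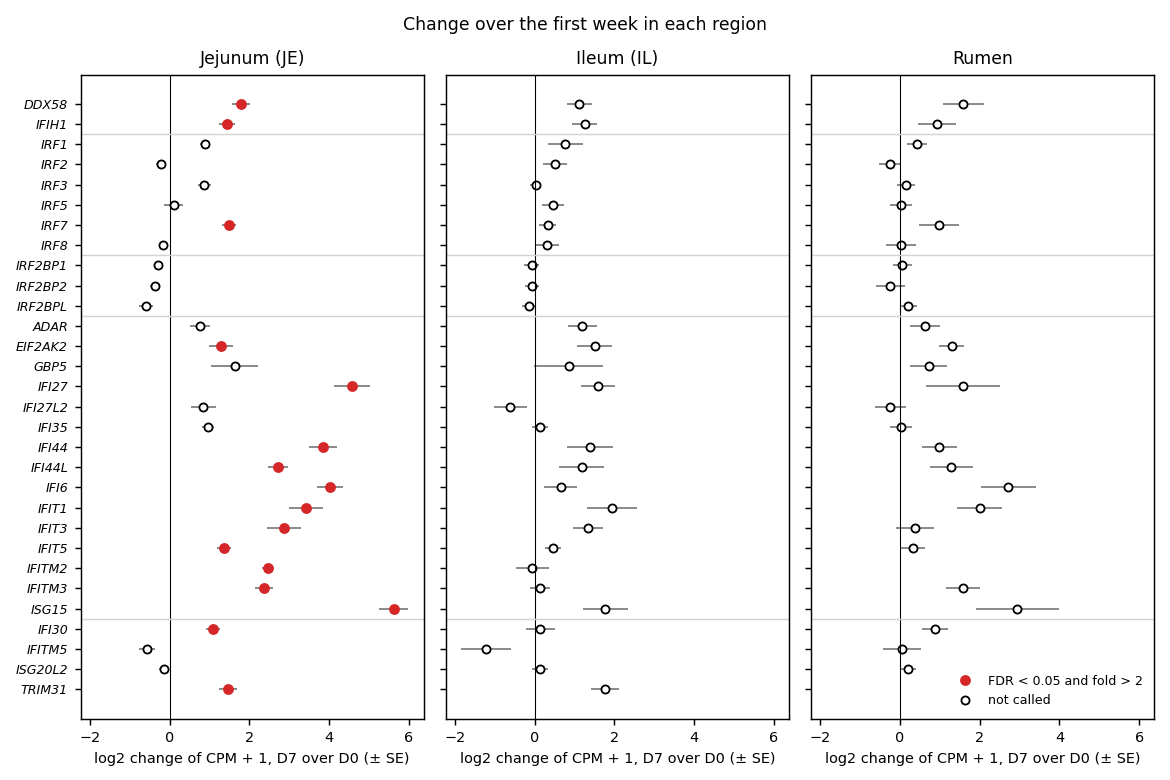
Log2 change of CPM + 1 from D0 to D7 for each gene with its standard error, in jejunum, ileum and rumen, where filled points mark genes called at FDR < 0.05 and a fold above 2. The 16 filled points are all in the jejunum panel, and most ileum and rumen points also lie right of 0 with longer error bars.

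A call in the jejunum and none in the ileum does not by itself show that the regions differed, so the difference in the first-week change was tested as an interaction. Between jejunum and ileum 7 of the 31 genes differed, all with the larger change in the jejunum, 22.6% of the set against 9.56% of the 13942 genes tested, of which 253 had the larger and 1080 the smaller change in the jejunum. They were *ISG15*, *IFI6*, *IFI27*, *IFI44*, *IFITM2*, *IFITM3* and *IRF7*. The difference in log2 change was 3.85 ± 0.74 for *ISG15* (limma FDR = 0.00926), 3.37 ± 0.57 for *IFI6* (limma FDR = 0.0055) and 1.18 ± 0.29 for *IRF7* (limma FDR = 0.0215). The values behind these differences lay on the D0 side as well as at D7. *IFI6*, for example, was 30, 60 and 61 CPM in the ileum at D0, above all D0 jejunum samples, and 45, 124, 48, 123 and 76 CPM at D7, below all D7 jejunum samples. *IFITM2* was 210, 87 and 47 CPM in the ileum at D0 and 106, 101, 73, 90 and 90 CPM at D7, with the highest D0 value, 210 CPM, in animal 1, the library that stood apart. Without the ileum libraries that disagreed with the study's table the D0 ileum arm holds 1 sample, assumed to vary like the other groups, and 7 genes were called, of which *ISG15*, *IFI6*, *IFI44*, *IFITM2* and *IFITM3* were in both lists. Leaving out animal 1 or animal 3 of D7 lowered the count to 4.

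Between rumen and jejunum 3 of the 31 genes differed in the first-week change, each with the smaller change in the rumen, 9.68% of the set against 3.37% of all genes tested. They were *IFI44*, *TRIM31* and *IFITM2*, with differences in log2 change of -2.87 ± 0.59 (limma FDR = 0.0117), -1.74 ± 0.45 (limma FDR = 0.0425) and -1.68 ± 0.34 (limma FDR = 0.0102). *TRIM31* and *IFITM2* did not pass the rumen's own filter and were tested through their jejunum values, so with rumen values near 0 their calls largely restate the rise in the jejunum. *IFITM2* was listed at 0 in each D0 rumen library, so its fitted difference depends on the constant added before the log. With the calf as a block none of the 3 was called, and without rumen animal 2 of D0 the count was 5. Between rumen and ileum none was called by limma, against 0.0211% of all genes. An unadjusted p under 0.05 was reached by 3 of the 31 and by 8.17% of all genes, which is about the same share, and 1, *TRIM31*, was called without rumen animal 2 of D0.

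After the first week the set showed no called change with age in any region by limma. In the jejunum none of the 31 was called from D7 to D21 and none from D21 to D42, against 0% of all genes in the D7 to D21 fit and 0% in the D21 to D42 fit, and 3 and 1 passed an unadjusted p under 0.05, against 5.7% and 5.87% of all genes. From D21 to D42 the log2 change in the jejunum was negative for 28 of the 31, with a median of -0.37 over the set and -0.00 over all genes, without any single gene passing. In the ileum none was called in the D7 to D21 fit and none in the D21 to D42 fit, against 0% and 0% of all genes, with 2 and 0 passing an unadjusted p under 0.05, against 10.8% and 2.51% of all genes. In the rumen none of the 29 was called from D7 to D21, against 0.062% of all genes, nor from D21 to D42, against 0%, with 5 and 3 passing an unadjusted p under 0.05, against 16.4% and 5.36% of all genes, so the first of these shares is about the background. None of the alternative settings called a member in these 6 comparisons.

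The spread between calves of 1 age was large beside these later differences. *ISG15* in the jejunum was 114, 391, 181, 506 and 33 CPM at D21 and 141, 37, 116, 60 and 290 CPM at D42. The D21 and D42 groups overlapped throughout, and the highest D21 calf was 15.3 times the lowest. *IFI27* was 159, 714, 550, 1407 and 46 CPM at D21 and 193, 50, 311, 66 and 516 CPM at D42. Animal 4 was the highest and animal 5 the lowest D21 calf for both genes. *IRF1* was closer between calves at D21, with 340, 388, 407, 435 and 341 CPM.

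The second question was where along the gut these genes were expressed, and most genes called between rumen and intestine were lower in the rumen. The members had passed a filter on jejunum and ileum samples, whereas all genes tested included genes that passed in the rumen only. That choice favours genes lower in the rumen, so the shares below are not like for like. At D0, D7, D21 and D42, 7, 16, 21 and 21 of the 31 genes differed between rumen and jejunum, against 20.1%, 32.2%, 32.6% and 33.5% of the 14174 genes tested. As shares of the set these were 22.6%, 51.6%, 67.7% and 67.7%. Of these calls 7, 15, 20 and 19 were lower in the rumen, and of all genes 1808, 2496, 3100 and 3334 were lower and 1046, 2072, 1520 and 1420 higher. Between rumen and ileum 4, 16, 17 and 18 genes differed at the same ages, 12.9%, 51.6%, 54.8% and 58.1% of the set, against 5.53%, 39.5%, 43.9% and 42.9% of the 14244 genes tested. Of these calls 4, 14, 16 and 17 were lower in the rumen, and of all genes 418, 3588, 4283 and 4605 were lower and 370, 2042, 1971 and 1506 higher. The median log2 difference at D7 was -0.88 over the set and 0.01 over all genes against the jejunum, and -0.94 and -0.29 against the ileum. At D21 and D42 it was -1.24 and -1.37 over the set and -0.23 and -0.31 over all genes against the jejunum, and -1.37 and -1.55 over the set and -0.43 and -0.53 over all genes against the ileum. Without rumen animal 2 of D0 the D0 counts were 7 against the jejunum and 3 against the ileum.

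Lower in the rumen than in the jejunum at each of D7, D21 and D42 were 15 genes, namely *IFIH1*, *IRF1*, *IRF8*, *GBP5*, *IFI27*, *IFI35*, *IFI44*, *IFI44L*, *IFI6*, *IFIT1*, *IFIT3*, *IFITM2*, *IFITM3*, *ISG15* and *TRIM31*. Of these, *IFIH1*, *IRF1*, *IRF8*, *IFI35*, *IFI44L*, *IFITM2* and *TRIM31* were also lower at D0. The share of the set called at D0, 22.6%, was about that of all genes, 20.1%. *IFITM2* and *TRIM31* did not pass the rumen's own filter and entered through their intestinal values. Lower in the rumen than in the ileum at all 3 later ages were 14 genes. *IRF1*, *IRF8*, *IFITM2* and *IFI30* were lower than in the ileum at D0 too.

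*IRF8*, a factor of macrophage, dendritic cell and B cell development, showed the widest gap among the regulatory factors. At D7 it was 5, 5, 8, 11 and 12 CPM in the rumen, 164, 183, 156, 179 and 158 CPM in the jejunum and 255, 277, 275, 288 and 315 CPM in the ileum. The 3 regions did not overlap, and the log2 difference was -4.27 ± 0.22 between rumen and jejunum (limma FDR = 1.33e-09) and -5.02 ± 0.21 between rumen and ileum (limma FDR = 7.94e-10). *IRF1* was 20, 21, 31, 25 and 24 CPM in the rumen at D7 against 348, 311, 331, 329 and 329 CPM in the jejunum. The groups were far apart, and the log2 difference was -3.73 ± 0.13 (limma FDR = 1.75e-11).

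*IFITM2* was 1, 0, 1, 1 and 1 CPM in the rumen at D7 against 107 to 158 CPM in the jejunum and 73 to 106 CPM in the ileum. In the other rumen libraries it was at 0 or 1 CPM, except 7 CPM in animal 2 of D42. *TRIM31* was between 0 and 2 CPM in each of the 18 rumen libraries, against 29 to 180 CPM in the jejunum. *IFITM3*, the near-identical paralog of *IFITM2*, was by contrast well detected in the rumen, at 29, 93, 107, 115 and 88 CPM at D7 and 18, 23, 23, 17 and 52 CPM at D42.

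Several effectors were near the lower limit of the rumen values at D7. *GBP5* was 2, 4, 3, 3 and 1 CPM in the rumen, 40, 11, 70, 34 and 17 CPM in the jejunum and 38, 43, 67, 26 and 6 CPM in the ileum. *IFI44* was 1, 6, 4, 6 and 3 CPM in the rumen and 14 to 31 CPM in the ileum, and *IFI44L* was 2, 7, 11, 9 and 11 CPM and 33 to 55 CPM. *IFI35*, a cytosolic protein induced by interferon, was 14, 17, 23, 17 and 24 CPM in the rumen, 66 to 110 CPM in the jejunum and 45 to 66 CPM in the ileum. For these 4 genes the rumen did not overlap either intestinal region, with log2 differences from the jejunum between -3.59 and -2.14.

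Some members were called between rumen and intestine at the later ages only. *IRF7* was 30, 22, 43, 41 and 41 CPM in the rumen and 105, 73, 83, 65 and 145 CPM in the jejunum at D42 (log2 difference -1.37 ± 0.23, limma FDR = 0.000284). The corepressor *IRF2BP2* was 41, 38, 56, 45 and 77 CPM in the rumen and 97, 95, 123, 120 and 118 CPM in the jejunum at the same age (log2 difference -1.13 ± 0.18, limma FDR = 0.000142). Neither gene's groups overlapped. *ADAR*, the RNA-editing enzyme, was 32, 35, 65, 53 and 55 CPM in the rumen and 85, 101, 167, 143 and 184 CPM in the ileum at D42 (log2 difference -1.47 ± 0.26, limma FDR = 0.00043). *IRF2BP1* and *ISG20L2* were the members with no call in any comparison, within 19 to 45 CPM and 29 to 82 CPM over all 54 libraries.

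The effectors of the rumen were not uniformly low. *IFIT5* was 55, 75, 106, 77 and 65 CPM in the rumen at D7 and 54, 86, 74, 81 and 57 CPM in the ileum, with overlapping groups. *DDX58*, the RIG-I gene, was 12, 54, 56, 40 and 61 CPM in the rumen at D7 and 27, 43, 27, 45 and 34 CPM in the ileum, and was not called between rumen and either intestinal region at any age. Its partner *IFIH1* was 4, 15, 15, 11 and 22 CPM in the rumen at D7 against 94, 77, 101, 108 and 157 CPM in the jejunum, a log2 difference of -3.03 ± 0.34 (limma FDR = 4.06e-06). The groups did not overlap for *IFIH1*, while the *DDX58* values of rumen and jejunum did.

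*IRF2BPL* went the other way. It was 44, 71, 54, 64 and 75 CPM in the rumen at D7 and 19, 17, 20, 27 and 28 CPM in the jejunum (log2 difference 1.43 ± 0.18, limma FDR = 1.72e-05).

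These regional differences moved together with cell type markers. At D7 all 4 intestinal epithelial, all 4 B cell, 4 of 6 macrophage and monocyte and 2 of 4 T cell markers were lower in the rumen than in the jejunum. In the same comparison 3 of 3 stratified epithelial, 4 of 4 smooth muscle and fibroblast and 1 of 6 macrophage and monocyte markers were higher. Of all genes tested there, 32.2% were called. Only 19 of the 27 markers passed the rumen's own filter, among them 2 of 4 T cell, 2 of 4 intestinal epithelial and no B cell markers. The rest entered through their jejunum values, which favours a call lower in the rumen. Macrophage and monocyte markers summed to 126 to 216 CPM in the rumen at D7 and to 487 to 711 CPM in the jejunum. B cell markers summed to between 0 and 2 CPM in the rumen, with *CD22* at 0 in each D7 library, and to between 24 and 88 CPM in the jejunum. The part of these cells in the regional differences was not tested. Scaling the samples by median ratios moved the median of all genes by up to 0.45 on the log2 scale, in the comparison of rumen and ileum at D42, where 12 genes were then lower and 2 higher in the rumen in place of 17 and 1. In the same comparison at D21 this scaling gave 15 lower and 3 higher in place of 16 and 1. Between rumen and jejunum it gave 15 lower and 2 higher at D21 in place of 20 and 1. At D42 it gave 16 and 2 in place of 19 and 2, and at D7 the counts stayed at 15 and 1.

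**Figure D4:**
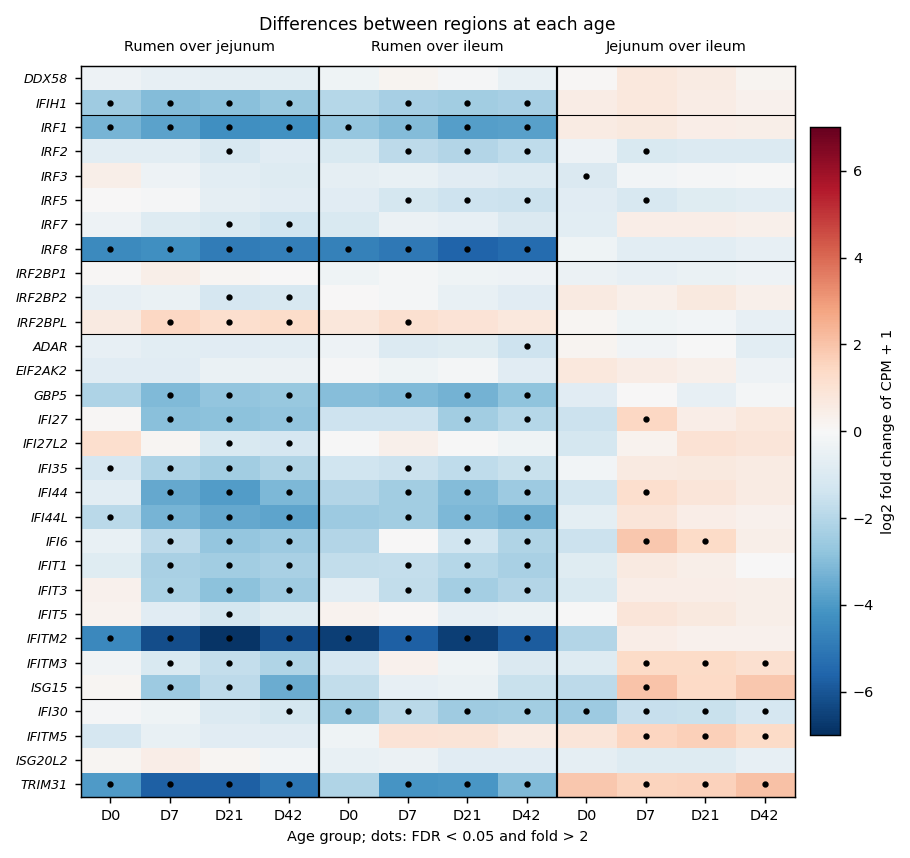
Log2 fold difference of CPM + 1 between regions for each gene and age, with blue for lower and red for higher in the region named first, and a dot where a gene was called. Blue dominates both rumen panels, with red at *IRF2BPL*, and the jejunum over ileum panel holds most of its dots at D7.

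Between jejunum and ileum the set held JE-enriched as well as IL-enriched members. The numbers of the 31 genes called from the youngest to the oldest age group were 2, 11, 6 and 5, against 8.87%, 27.1%, 26.8% and 20.9% of the 13942 genes tested. As shares of the set these were 6.45%, 35.5%, 19.4% and 16.1%, below the background at all ages but D7. At D7, 8 genes were higher in the jejunum, among them *IFI27*, *IFI44*, *IFI6*, *IFITM3*, *IFITM5*, *ISG15* and *TRIM31*, and 3 were higher in the ileum, *IFI30*, *IRF2* and *IRF5*. *IFITM3*, *IFITM5* and *TRIM31* were JE-enriched at D7, D21 and D42, and *IFI30* was IL-enriched at all 4 ages. With median-ratio scaling 12 genes were higher and 1 lower in the jejunum at D7, in place of 8 and 3, 1 and 1 at D0, in place of 0 and 2, and 5 and 0 at D42, in place of 4 and 1.

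*ISG15* at D7 was 34, 79, 36, 64 and 41 CPM in the ileum, below the lowest jejunum sample of 138 CPM (log2 difference 2.0 ± 0.30, limma FDR = 9.56e-05). By D21 its ileum values of 29, 85, 84, 93 and 55 CPM overlapped the jejunum values of 33 to 506 CPM, and the log2 difference of 1.39 ± 0.63 was not called (limma FDR = 0.0734). *IFI6* was called at D7 and D21 and not at D42, when the jejunum had 57, 37, 96, 49 and 249 CPM and the ileum 18, 51, 106, 51 and 119 CPM. The groups at D42 overlapped almost entirely.

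*IFI30*, the antigen-processing reductase, was 53, 53, 41, 47 and 48 CPM in the jejunum at D7 and 124, 160, 155, 175 and 138 CPM in the ileum (log2 difference -1.61 ± 0.12, limma FDR = 2.56e-07). The groups did not overlap at D0, D7 or D21, and at D42 the overlap came from ileum animal 1, at 36 CPM. *IRF8* was higher in the ileum in each D7 sample, at 255 to 315 CPM against 156 to 183 CPM, with a log2 difference of -0.74 ± 0.10 that was under the fold threshold (limma FDR = 2.61e-05). *IRF2* was 30, 29, 31, 36 and 32 CPM in the jejunum and 60, 66, 64, 75 and 74 CPM in the ileum (log2 difference -1.08 ± 0.10, limma FDR = 2.63e-06). *IRF5*, which acts downstream of Toll-like receptors in macrophages and B cells, was 32, 28, 15, 38 and 25 CPM in the jejunum and 62, 68, 48, 59 and 63 CPM in the ileum (log2 difference -1.14 ± 0.21, limma FDR = 0.000371).

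*TRIM31* was 130, 83, 116, 120 and 64 CPM in the jejunum at D7 against 37, 30, 34, 36 and 27 CPM in the ileum (log2 difference 1.58 ± 0.19, limma FDR = 1.23e-05). The lowest jejunum calf exceeded the highest ileum calf. *IFITM5* was 9, 9, 9, 9 and 15 CPM in the jejunum and 4, 1, 2, 3 and 6 CPM in the ileum (log2 difference 1.51 ± 0.30, limma FDR = 0.000756), levels at which 1 CPM steps matter. Marker genes again moved with these differences. At D7 all 4 intestinal epithelial markers were higher in the jejunum. All 4 B cell and 3 of 6 macrophage and monocyte markers were lower there, and 27.1% of all genes were called. B cell markers summed to 24 to 88 CPM in the jejunum against 774 to 1470 CPM in the ileum. The part of these cells was not tested.

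At D0 only *IFI30* and *IRF3* were called between jejunum and ileum, both lower in the jejunum. Without the 2 D0 ileum libraries that disagreed with the study's table the count was 8, with the single remaining ileum sample assumed to vary like the jejunum samples, and with the calf as a block it was 0. *IRF3* was 52, 53 and 42 CPM in the jejunum and 99, 112 and 89 CPM in the ileum at D0, without overlap (log2 difference -1.02 ± 0.18, limma FDR = 0.0319). At D42 the count with the calf as a block was 3, *TRIM31* and *IFITM3* among them, and leaving out animals 2, 3, 4 or 5 lowered it to between 1 and 2. Without the ileum library of animal 1 of D42 the count was again 5, but *IFITM3* was not called. Between rumen and ileum at D42 the count was then 23 in place of 18. Against the rumen at D0 the count in the ileum comparison fell from 4 to 1, *IFITM2*, without the 2 D0 ileum libraries and to 2, *IRF8* and *IFITM2*, with the block.

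The third question was whether a calf with high values in one region also had high values in another, taking equal animal numbers as 1 calf. For rumen with jejunum at D7 the deviations of equal numbers over all genes correlated negatively in all 5 pairs, from -0.36 to -0.03, so the match of the rumen samples is uncertain. For jejunum with ileum at D42 the correlations ran from -0.51 to 0.18, with a median of 0.05, so that match is uncertain too. Values were centred on the mean of each age and region, and the correlation over 18 calves was tested by permuting calves within age. None of the 31 genes passed FDR < 0.05 for jejunum with ileum, nor any of the 29 tested for rumen with jejunum and rumen with ileum, against 0%, 0% and 0% of the 12980, 12191 and 12113 genes tested. At an unadjusted p under 0.05, 0, 5 and 6 members passed, against 6.16%, 4.54% and 3.81% of all genes. As a description, Pearson's *r* was positive in 26 of 31, 26 of 29 and 27 of 29 genes, with medians of 0.26, 0.37 and 0.27 over the set and -0.03, 0.05 and 0.06 over all genes. The genes of a set share the same libraries, so these counts are not independent of each other. Without the ileum libraries that disagreed with the study's table the median was 0.44 over the set and 0.07 over all genes for jejunum with ileum, and 0.38 and 0.09 for rumen with ileum, where 24 of 29 genes were positive, over 15 calves. Without rumen animal 2 of D0 the set's median was 0.40 for rumen with jejunum and 0.31 for rumen with ileum.

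*DDX58* had the highest values for rumen with ileum, with Pearson's *r* of 0.76 and Spearman's rho of 0.82 (permutation p = 0.00124, FDR = 0.772, two-sided, 18 calves). Without the 2 calves farthest from the median *r* was 0.75. For rumen with jejunum and jejunum with ileum its *r* was 0.63 and 0.48. *ISG15* gave *r* of 0.62 and rho of 0.73 for rumen with ileum (permutation p = 0.0118, FDR = 1), and *r* of 0.22 for jejunum with ileum, which was 0.55 over the 15 calves without the doubtful ileum libraries. *IFI6* gave *r* of 0.53 for jejunum with ileum, which fell to 0.31 without the 2 calves farthest from the median.

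Single animal numbers are given as a description and were chosen after seeing the counts. The effectors of 1 library are not independent of each other. How often each library was the highest or lowest over all genes was not determined. Of the 15 effectors, animal 5 of D42 was the highest calf of its age in 11 in the jejunum, 10 in the ileum and 9 in the rumen. Its *ISG15* values were 290, 102 and 55 CPM in the 3 regions, while animal 2 of D42 had 37, 15 and 2 CPM. Animal 4 of D21 was the highest in 13 effectors in the jejunum and 9 in the ileum, but in 1 in the rumen, where animal 2 of D21 was the highest in 9. At D7 the regions ranked different calves first, animal 5 in the jejunum with 11 effectors and animal 2 in the ileum with 9. Animal 1 of D7 was the lowest in 12 effectors in the rumen. The lowest ileum library of D42, animal 1 with 12 effectors, was the one with few B cell markers.

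**Figure D5:**
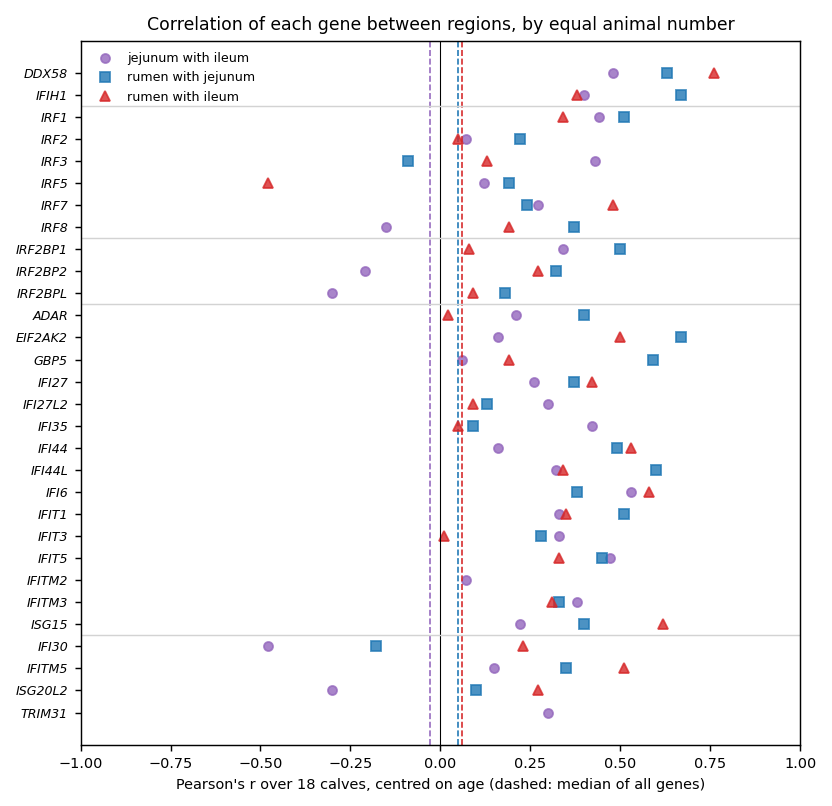
Pearson's *r* between regions for samples of equal animal number, for each gene over 18 calves, after centring on age, with 1 symbol per pair of regions and dashed lines at the median of all genes. Most symbols lie right of the dashed lines, and no gene passed FDR < 0.05.

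Other genes of the pathway were taken as a list of 11, made of 5 receptor subunits, 4 signalling genes and 2 induced genes. In the first week 3 of the 11 rose in the jejunum and none fell, against 9.5% of all genes called in either direction. *HERC5*, the ligase that attaches ISG15 to proteins, was 6, 8 and 8 CPM at D0 and 45, 33, 29, 33 and 54 CPM at D7 (log2 change 2.23 ± 0.21, limma FDR = 6.23e-05). *CMPK2*, an interferon-induced nucleotide kinase, and *CIITA*, the master regulator of MHC class II genes, had log2 changes of 1.05 ± 0.16 (limma FDR = 0.00105) and 1.04 ± 0.27 (limma FDR = 0.0196). None of the 5 receptor genes *IFNAR1*, *IFNAR2*, *IFNGR1*, *IFNGR2* and *IL10RB* was called, and their median log2 change was -0.05. In the ileum and rumen 0 of the 11 were called between D0 and D7, against 0% of all genes in each of these fits.

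By region, 7 of the 11 were lower and none higher in the rumen than in the jejunum at D7, against 32.2% of all genes called, 2496 lower and 2072 higher. These 11 came from the same table, filtered on jejunum and ileum samples. The 7 included *CMPK2*, *HERC5*, *IFNGR1* and *IFNGR2*. *CIITA* was 1, 3, 6, 5 and 11 CPM in the rumen, 41, 31, 17, 43 and 27 CPM in the jejunum and 100, 136, 91, 118 and 154 CPM in the ileum at D7. The 3 regions did not overlap, and the jejunum was below the ileum with a log2 difference of -1.92 ± 0.23 (limma FDR = 1.52e-05). *TICAM1*, the adaptor TRIF of Toll-like receptor signalling to interferon, was 69, 44, 63, 65 and 52 CPM in the jejunum against 17, 13, 13, 11 and 15 CPM in the ileum (log2 difference 2.0 ± 0.15, limma FDR = 3.64e-07). *IFNGR2*, a subunit of the interferon gamma receptor, was also JE-enriched at D7, with 134 to 220 CPM against 68 to 98 CPM.

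Symbols for 17 further interferon and JAK-STAT genes came from the study's lists of genes that changed in these samples. Neither their direction nor the share called is therefore independent evidence. Family members that the study did not list as changing could not enter, so the list does not show how the families behaved. Of the 17, 11 were called higher at D7 than at D0 in the jejunum and none lower, with a median log2 change of 1.51. Over all genes 9.5% were called and the median was -0.10, a difference that the choice of the list favours. *MX1*, an antiviral GTPase, was 19, 12 and 30 CPM at D0 and 271, 178, 215, 371 and 589 CPM at D7. *RSAD2*, which encodes viperin, was 4, 5 and 9 CPM at D0 and 72, 69, 82, 113 and 221 CPM at D7. *USP18*, which removes ISG15 and damps interferon signalling, was 15, 11 and 19 CPM at D0 and 128, 82, 93, 95 and 145 CPM at D7. Every D7 sample was above every D0 sample for these 3 genes, and animal 5 was the highest D7 calf for each. *OAS2*, an enzyme that senses double-stranded RNA, was listed at 0 in each D0 jejunum sample and at 7, 6, 5, 11 and 20 CPM at D7.

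Of the JAK-STAT genes proper, *STAT3* was 146, 134 and 132 CPM at D0 and 299, 246, 481, 350 and 361 CPM at D7 in the jejunum. *SOCS3*, the feedback inhibitor that STAT3 induces, was 3, 2 and 2 CPM at D0 and 15, 5, 12, 14 and 12 CPM at D7. *SOCS7* and *SOCS6*, of the same inhibitor family, had lower values at D7. *SOCS7* was 11, 10 and 13 CPM at D0 and 4, 4, 5, 8 and 6 CPM at D7, without overlap and just under the fold threshold (log2 change -0.98 ± 0.22, limma FDR = 0.0107). *SOCS6* was 13, 13 and 12 CPM at D0 and 7, 8, 10, 11 and 11 CPM at D7 and was not called (log2 change -0.41 ± 0.18, limma FDR = 0.115). *JAK3*, the kinase of lymphocyte cytokine receptors, was IL-enriched, with 92, 78, 74, 82 and 78 CPM in the ileum at D7, 24, 32, 20, 31 and 30 CPM in the jejunum and 2, 4, 3, 2 and 5 CPM in the rumen. *IRF4*, a factor of B cells and plasma cells, was likewise 36, 46, 39, 52 and 48 CPM in the ileum against 5, 5, 3, 6 and 5 CPM in the jejunum at D7. In the rumen at D7 *IRF4* was 0, 0, 1, 1 and 1 CPM. Both genes followed the order of the B cell marker sums across the 3 regions. Macrophage and monocyte marker sums had the same order at D7, at 126 to 216 CPM in the rumen, 487 to 711 CPM in the jejunum and 715 to 1254 CPM in the ileum. The part of either cell type was not tested.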

How the data were processed

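RNA-Seq of rumen, jejunum and ileum wall was done by the authors on 54 libraries. Per the study's methods the authors used CASAVA 1.8, TopHat2 2.0.10, the bovine build UMD3.1 and HTSeq, and divided counts by total mapped reads to give CPM. The deposited values are such CPM rounded to whole numbers, recorded here as a score. Gene counts were not used here, so a count test was not run, and the depth of each library, which sets the precision of low values, is unknown. A further 17 files labelled distal jejunum were not used because all 17 held the same values as ileum files. RNA extraction differs between the labels and the methods (Trizol or mirVana).

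A gene was kept where 50% or more of a region's 18 samples, or of either region's in a comparison of regions, were above 1 CPM. Each pair of groups was fitted with limma 3.58.1 (R 4.3.3, lmFit and eBayes with trend) on log2(CPM + 1), with Benjamini-Hochberg adjustment over all genes tested. Genes were called at FDR < 0.05 and a fold change above 2. Interactions were called at FDR < 0.05 and a difference above 1 on the log2 scale. Correlations between regions used 100000 permutations of calves within age (Python 3.11.15, numpy 2.4.6). Scripts were tested on simulated data. Symbols came from the study's supplementary tables, of which part was used, and no gene coordinates or sequences were used. The 31 genes, the other gene lists and the 27 markers were chosen with earlier results of these data known. Counts cover all genes of a list, and single values of some genes are not reported here.

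Equal animal numbers within an age were taken as 1 calf, an assumption that the labels and methods do not state. Deviations from the group means correlated above 0.1 in 8 of 18 calves for jejunum with ileum, in 8 of 18 for rumen with jejunum (0 of 5 at D7) and in 5 of 18 for rumen with ileum. Alternatives were a pseudocount of 0.1, median-ratio scaling, no filter, all groups in 1 fit, the calf as a block, leaving out each calf, and leaving out 3 ileum libraries. Leaving out rumen animal 2 of D0 was added after seeing the data.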

Additional observations from a re-analysis of the deposited data

Results flagged for a closer look

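Among the groups of 5 calves, 258 were examined for a value far from the others on the log2(CPM + 1) scale by Dixon's criterion, and 14 had one, against about 13 that chance gives at 1 in 20. Animal 1 of D7 was far below the other calves in the rumen for *IFI27* at 5 CPM, *ISG15* at 2 CPM, *DDX58* at 12 CPM and *IFITM3* at 29 CPM. Animal 1 of D42 in the ileum, the library with few B cell markers, was far below for *IFI30* at 36 CPM, *IRF2* at 38 CPM and *IRF8* at 136 CPM, and far above for *IRF2BPL* at 46 CPM. Animal 5 of D7 in the jejunum was far above for *IFIT3* at 70 CPM and *IFITM5* at 15 CPM. The other such values were *IRF1* at 556 CPM in the jejunum of animal 3 of D42, *IFITM3* at 52 CPM in the rumen of animal 5 of D42, *IRF3* at 40 CPM in the rumen of animal 2 of D42 and *IRF2BP2* at 92 CPM in the ileum of animal 1 of D7.

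The first-week change differed between jejunum and ileum by the interaction test of limma, with a larger log2 change in the jejunum by 3.85 for *ISG15*, 3.37 for *IFI6*, 2.99 for *IFI27*, 2.54 for *IFITM2*, 2.48 for *IFI44*, 2.23 for *IFITM3* and 1.18 for *IRF7*. Between rumen and jejunum the difference in log2 change was -2.87 for *IFI44*, -1.74 for *TRIM31* and -1.68 for *IFITM2*, the last of these with the D0 rumen libraries listed at 0.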

How the results depend on the processing

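Over the 170 values of single genes that were called, 1786 recomputed values were obtained, of which 1639 were called in the same direction, 146 were no longer called and 1 reversed, the difference in first-week change of *IFITM2* between rumen and jejunum, which was 0.24 with a pseudocount of 0.1. That pseudocount lowered the count of genes called in this interaction to 0. With all groups in 1 fit the counts of called genes were 6 for jejunum and ileum at D0, 15 for rumen and ileum at D0, 3 and 2 for the first week in ileum and rumen, and 1 for the rumen and jejunum interaction. With the calf as a replicate block they were 0 and 3 for jejunum and ileum at D0 and D42, 2 for rumen and ileum at D0, and 0 for the rumen and jejunum interaction, and within 1.5 times the reported count in the other 11 of 15 blocked comparisons. Without the doubtful ileum libraries the counts were 8 for jejunum and ileum and 1 for rumen and ileum at D0. Without rumen animal 2 of D0, a setting chosen after seeing the data, they were 5 and 1 for the rumen interactions with jejunum and ileum. Leaving out 1 calf at a time gave 0 to 8 for jejunum and ileum at D0, 1 to 5 at D42, 4 to 7 for rumen and jejunum at D0, 0 to 2 for rumen and ileum at D0, 0 to 4 for the first week in the rumen, 4 to 9 for the jejunum and ileum interaction, 0 to 5 for rumen and jejunum and 0 to 2 for rumen and ileum. The first-week rise in the jejunum gave 16 to 17 genes. The cause of these shifts was not tested. The share of all genes called in each recomputed fit is not given here, so these counts are not set against the background. Median-ratio scaling moved the median of all genes by over 0.1 in 12 of 24 comparisons. D0 groups of 3 and whole-number CPM limit the precision.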
